A study of Rattus norvegicus with 9 samples.

Results

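The nuclear-encoded genes of the mitochondrial respiratory chain and ATP synthase were read in the kidneys of 9 rats in 3 groups of 3. Members were chosen by symbol from the genes of the deposited table. The rule took Ndufa, Ndufb, Ndufc, Ndufs or Ndufv followed by a digit, Sdha to Sdhd, and Cyc1 and Cycs. It also took the Uqcr, Cox4 to Cox8 and Atp5 families. Nduf symbols without that digit, such as Ndufab1, fall outside the rule, and Ndufa4 and Ndufa4l2 were counted with complex IV. Of 36267 features in the table, 90 matched by symbol, and 82 of these reached at least 1 CPM (read counts scaled to the same total in every library) in at least 3 libraries. These 82 comprised 35 of 36 matched genes of complex I, 4 of 4 of complex II, 11 of 11 of complex III with cytochrome c, 15 of 22 of complex IV and 17 of 17 of complex V. Icariin rats were given icariin, a flavonoid glycoside of Epimedium plants, at 100 mg/kg into the stomach daily for 3 days. They then went through the protocol for contrast-induced acute kidney injury (CIAKI). CIAKI rats went through that protocol alone, which was furosemide into the stomach at 200 mg/kg, a diuretic that acts on the thick ascending limb, then dehydration for 6 h and iopromide, an iodinated contrast medium with 370 mg I/mL, at 15 mL/kg into a vein. Control rats had no treatment. All rats weighed 180 to 200.0 g, and their age is not used here. The RNA came from whole kidney tissue, so every value is an average over all segments and cell types.

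The respiratory chain passes electrons from NADH through complex I, and from succinate through complex II, to ubiquinone. They move on through complex III and the mobile carrier cytochrome c to complex IV, which reduces oxygen, and the proton gradient built on the way drives ATP synthesis by complex V. In the kidney the mitochondria are densest in the proximal tubule and the thick ascending limb, whose transport of salt and solutes rests on oxidative metabolism. Complexes I, III, IV and V also hold subunits encoded in the mitochondrial DNA, whereas complex II is wholly nuclear-encoded.

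The promoters of these genes are known for sites of the nuclear respiratory factor NRF1, of GABPA (the DNA-binding subunit of nuclear respiratory factor 2), of YY1 and of the oestrogen-related receptors (ERR). Windows reaching from 250 bases before to 50 bases after the start of each gene were available in RefSeq (build GRCr8) for 68 of the 79 distinct symbols among the 82 members. The NRF1 consensus was searched on both strands, as were the letters CCGGAAGT for GABPA, AAGATGGC for YY1 and TCAAGGTCA for ERR. At least 1 of the 4 was present in 33 of 68 member windows (48.5%), against 13.2% of the windows of all 21851 protein-coding genes. Split by motif, the YY1 letters stood in 15 member windows (22.1%, against 3.67% of all windows) and the NRF1 letters in 13 (19.1%, against 5.67%). The GABPA letters stood in 8 (11.8%, against 4.77%), and the ERR letters in 2 (2.94%, against 0.366%), those of Sdhd and Atp5mc3. No member window held matches of different motifs that overlapped. The letters CCAAT stood in 22 member windows (32.4%, against 38% of all) and TATAAA in 5 (7.35%, against 13%). A match is a description of letters only, and binding was not measured. Printed are windows of members chosen as examples, 1 each from complexes I, II and IV and 2 from complex V, 5′ to 3′ on the strand of the gene. Capitals mark the NRF1, GABPA, YY1 and ERR matches.
Ndufa11, chr9:1637364-1637663, plus strand: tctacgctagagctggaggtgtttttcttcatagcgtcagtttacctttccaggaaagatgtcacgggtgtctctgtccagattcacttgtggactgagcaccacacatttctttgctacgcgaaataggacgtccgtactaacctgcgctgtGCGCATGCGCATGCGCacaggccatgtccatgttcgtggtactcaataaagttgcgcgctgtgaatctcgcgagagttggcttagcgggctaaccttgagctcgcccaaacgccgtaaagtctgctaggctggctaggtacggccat
Sdha, chr1:30764303-30764602, plus strand: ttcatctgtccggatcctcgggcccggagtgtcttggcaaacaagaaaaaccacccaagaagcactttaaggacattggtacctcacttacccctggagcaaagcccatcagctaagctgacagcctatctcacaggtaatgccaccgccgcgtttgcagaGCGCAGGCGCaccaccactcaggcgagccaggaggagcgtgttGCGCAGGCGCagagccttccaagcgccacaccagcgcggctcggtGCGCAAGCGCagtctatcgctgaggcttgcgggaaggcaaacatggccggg
Cox8a, chr1:213833574-213833873, minus strand: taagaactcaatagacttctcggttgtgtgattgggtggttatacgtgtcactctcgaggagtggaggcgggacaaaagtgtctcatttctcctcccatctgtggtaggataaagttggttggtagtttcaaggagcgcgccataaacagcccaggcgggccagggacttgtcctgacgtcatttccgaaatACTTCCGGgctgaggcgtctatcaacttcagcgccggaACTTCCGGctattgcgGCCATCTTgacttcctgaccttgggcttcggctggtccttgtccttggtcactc
Atp5po, chr11:44657434-44657733, minus strand: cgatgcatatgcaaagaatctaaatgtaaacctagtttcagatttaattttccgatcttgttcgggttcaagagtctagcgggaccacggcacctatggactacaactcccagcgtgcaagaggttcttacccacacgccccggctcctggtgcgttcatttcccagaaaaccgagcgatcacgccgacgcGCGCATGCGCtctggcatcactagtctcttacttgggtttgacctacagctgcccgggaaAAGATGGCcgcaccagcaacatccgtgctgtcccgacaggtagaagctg
Atp5if1, chr5:150026628-150026927, minus strand: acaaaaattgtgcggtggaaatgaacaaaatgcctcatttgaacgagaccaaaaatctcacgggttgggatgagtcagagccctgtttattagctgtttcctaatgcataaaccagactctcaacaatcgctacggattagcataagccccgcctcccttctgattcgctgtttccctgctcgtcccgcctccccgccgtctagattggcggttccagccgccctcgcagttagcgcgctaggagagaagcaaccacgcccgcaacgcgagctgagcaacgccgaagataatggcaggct
The Ndufa11 window held 2 NRF1 matches that overlap each other, and the Sdha window held 3 separate NRF1 matches. The Cox8a window held 2 GABPA matches and a YY1 match that lies across the start of the gene. The Atp5po window held an NRF1 and a YY1 match, whereas the window of Atp5if1 held none of the 4. The windows of Cycs, Ndufs8 and Atp5f1b, members that were lower in CIAKI and are not printed, also held none of the 4. The NRF1 letters stood in 7 of the 35 windows of members that were lower in CIAKI than in control kidneys and in 6 of the 31 windows of members that did not pass. For the YY1 letters these counts were 10 of 35 and 5 of 31, for GABPA 3 of 35 and 5 of 31, and for ERR 1 of 35 and 1 of 31.

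The libraries held 64380578 to 90398405 reads, and every test below was read from limma across all 16731 features that passed the same 1 CPM rule, on log2(CPM + 1), with Benjamini-Hochberg adjustment and calls at an adjusted p below 0.05. Fold changes on this scale understate the change of genes with low values. 2 libraries stood apart. Icariin replicate 2 held 1.65% of its reads in the mitochondrially encoded subunit genes, against 3.86% to 5.71% in the other libraries, and Mt-co1 stood at 437 CPM there, against 22773 to 38157 CPM elsewhere. Control replicate 1 had Ucp1, the uncoupling protein of brown fat, at 5.67 CPM, against 0 to 0.52 CPM elsewhere. Without icariin replicate 2 the counts given below were 37 members lower in CIAKI than in control, 40 higher in icariin than in CIAKI, and 0 lower there, since Atp5if1 no longer passed. Without control replicate 1, 35 members were lower in CIAKI than in control and 0 were higher.

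The comparison of CIAKI with control kidneys asks what the contrast protocol does to these transcripts. As many respiratory chain genes were lower in CIAKI kidneys as did not pass, and few were higher. Of 82 members, 40 were lower, 2 were higher and 40 did not pass, where 20.5% of all features tested were lower and 20.8% were higher (41.3% in either direction). The members had higher levels than most features, with a median of 98.8 CPM against 15.9 CPM over all features tested. The shares of all features given here and below are not matched for level. The members' median log2 fold change was -0.25 in CIAKI against control, beside -0.00 over all features, and 74 of 82 members lay below 0. The CIAKI libraries lay wholly below the control libraries for 50 members and wholly above them for 3, against 26.5% and 26.9% of all features. The sum of the 82 members was 13432, 14543 and 13831 CPM in CIAKI, against 17281, 17878 and 17241 CPM in control libraries, so the CIAKI mean was 79.8% of the control mean. In complex II 4 of 4 members were lower, in complex I 18 of 35 were lower, in complex III 6 of 11, in complex V 9 of 17, and in complex IV 3 of 15. The median log2 fold changes were -0.26, -0.39, -0.24, -0.16 and -0.31 for complexes I to V. The share of complex IV lay near that of all features, and 1 of its members was higher. Whether the complexes differ from each other was not tested.

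**Figure D1:**
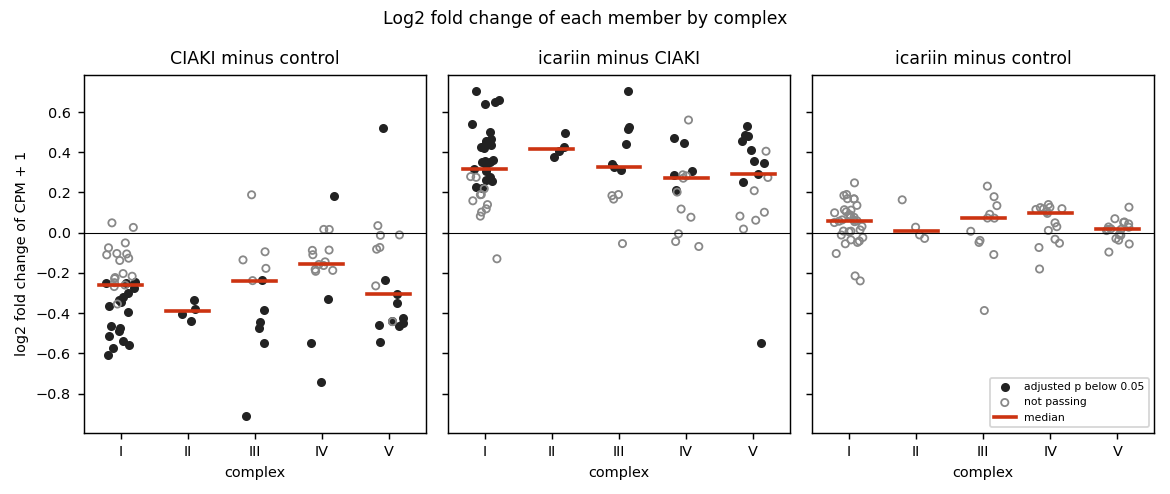
Log2 fold change of CPM + 1 (vertical axis) of each of the 82 members by complex (horizontal axis), for CIAKI minus control, icariin minus CIAKI and icariin minus control. Filled points passed an adjusted p of 0.05, open points did not, and bars are medians: the bars lie at -0.16 to -0.39 in CIAKI against control, at 0.27 to 0.42 in icariin against CIAKI, and at 0.01 to 0.10 in icariin against control.

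Complex I, the NADH dehydrogenase, had 4 of its 7 core subunits lower in CIAKI, and 14 of its 28 accessory subunits. Ndufs8, which carries a pair of iron-sulfur clusters on the path to ubiquinone, stood at 123, 121 and 109 CPM in icariin, 64.1, 83.1 and 77.1 CPM in CIAKI, and 114, 114 and 106 CPM in control libraries. The CIAKI libraries were all below both other groups, and the log2 fold change of CIAKI against control was -0.57 (SE 0.10, adjusted p = 0.00179). Ndufs7, which holds the last iron-sulfur cluster before ubiquinone, stood at 90.9, 97.3 and 82.4 CPM in icariin, 49.3, 62.1 and 54.1 CPM in CIAKI, and 78.3, 81.9 and 76.2 CPM in control libraries. All 3 CIAKI values again lay below the rest, at 70% of the control mean (-0.51, SE 0.10, adjusted p = 0.00283). Ndufs3, a scaffold subunit of the peripheral arm, averaged 81.5 ± 4.52 CPM in CIAKI and 113 ± 4.7 CPM in control (SD, n = 3 each). The log2 fold change was -0.46 (SE 0.07, adjusted p = 0.00081). Ndufs1, the largest iron-sulfur subunit, averaged 330.4 ± 37.1 CPM in CIAKI and 458 ± 21.8 CPM in control (-0.48, SE 0.09, adjusted p = 0.00289). The core subunits that did not pass included Ndufv1, which binds NADH and the flavin (-0.22, adjusted p = 0.0503), and Ndufv2, its iron-sulfur partner (-0.11, adjusted p = 0.28). Ndufv1 was just short of the threshold, with all CIAKI values below all control values.

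Among the accessory subunits of complex I, Ndufa11, a membrane subunit, had the most negative log2 fold change of CIAKI against control. It stood at 53.9, 51.5 and 47.4 CPM in icariin, 33.6, 31 and 32.2 CPM in CIAKI, and 52.2, 46.9 and 50.3 CPM in control libraries. The CIAKI values were close to each other and far below the rest (log2 fold change -0.61, SE 0.08, adjusted p = 0.000404). The membrane arm subunits Ndufc1 (20.5, 22.4 and 21.9 CPM in icariin, 13.5, 13.8 and 12.7 CPM in CIAKI, and 22.9, 19.8 and 17.9 CPM in control) and Ndufb8 were lower by log2 fold changes of -0.56 (adjusted p = 0.00301) and -0.54 (adjusted p = 0.00875). Ndufb2 (-0.49), Ndufa6, an LYR-motif subunit that binds the acyl carrier protein (-0.40), Ndufb3 (-0.36) and Ndufs4, whose loss destabilises complex I in mice (-0.30), were also lower. The accessory subunits that passed ranged down to Ndufb5 and Ndufa2, both at -0.25. Ndufa2 did not pass in 12 of the 20 alternative settings. It failed without any single library of the icariin or control groups or without CIAKI replicate 2 or 3 (adjusted p up to 0.134). The calls of Ndufb11 and Ndufb4 ended without control replicate 2 (adjusted p = 0.0663 and 0.0629), and that of Ndufb4 also without control replicate 3 (0.0562). The 17 members of complex I that did not pass lay between -0.35 and 0.05. Ndufa1 and an Ndufa10-like gene, Ndufa10l1 (ENSRNOG00000062245), were the least even of them. Ndufa10l1 with this identifier stood at 31.8, 34 and 32.7 CPM in icariin, at 47.8, 17.5 and 31.1 CPM in CIAKI, and at 48.4, 35.1 and 32.9 CPM in control libraries. Its CIAKI libraries straddled the other groups. Its second copy in the table, like the copies of Cox6b1, Uqcrb and Ndufv3, may share reads with it, so such pairs are uncertain.

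Complex II, succinate dehydrogenase, belongs to the citric acid cycle as well as to the respiratory chain. Sdha, its flavin-bearing catalytic subunit, stood at 732, 736 and 751 CPM in icariin, 524, 574 and 552 CPM in CIAKI, and 715, 751 and 771 CPM in control libraries. The CIAKI values lay together at 73.8% of the control mean, with no overlap (log2 fold change -0.44, SE 0.07, adjusted p = 0.00137). Sdhb, the iron-sulfur subunit, stood at 266, 276 and 253 CPM in icariin, 166, 204 and 193 CPM in CIAKI, and 232, 235 and 241 CPM in control libraries. It was lower in each CIAKI library than in any other (-0.33, SE 0.08, adjusted p = 0.0107). The membrane anchors Sdhc and Sdhd, which hold the haem and the ubiquinone site, were lower by -0.38 (SE 0.08, adjusted p = 0.00562) and -0.40 (SE 0.09, adjusted p = 0.00608). Sdhc averaged 314 ± 29.9 CPM in CIAKI and 407 ± 1.66 CPM in control, and Sdhd 257 ± 18.5 CPM in CIAKI and 340.2 ± 23.5 CPM in control. The calls of all 4 held in each of the 20 alternative settings.

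In complex III and its partner cytochrome c, Cycs had the most negative log2 fold change of all 82 members. Cycs encodes somatic cytochrome c, the electron carrier between complexes III and IV, which also triggers apoptosis when released into the cytosol. Its values were 44.9, 48.1 and 50.4 CPM in icariin, 35, 31.3 and 32.3 CPM in CIAKI, and 66.2, 75.2 and 49.5 CPM in control libraries. The CIAKI libraries were lowest, while the icariin libraries lay between the groups and met the lowest control library. CIAKI minus control was -0.91 on the log2 scale (SE 0.14, adjusted p = 0.000981), 51.7% of the control mean. Among the small subunits, Uqcrb was lower at both of its identifiers (-0.55 for ENSRNOG00000024967 and -0.38 for ENSRNOG00000032204), as was Uqcr11 (-0.44, SE 0.08, adjusted p = 0.002). Uqcr10 stood at 80, 109 and 68.8 CPM in icariin, 54.4, 47.7 and 52 CPM in CIAKI, and 74.1, 73.7 and 67.5 CPM in control libraries (-0.47, SE 0.15, adjusted p = 0.0277). Its CIAKI values were below all others, but the call ended without CIAKI replicate 2 or 3 (adjusted p = 0.0806 and 0.0547) and without control replicate 1 or 2 (0.0779 and 0.0752). The call of Uqcrc2, a core protein (-0.24, adjusted p = 0.0493), ended in 13 alternative settings, among them each of those that left out a library other than CIAKI replicate 2, with adjusted p up to 0.131. The redox subunits did not pass: Cyc1, the cytochrome c1, had a log2 fold change of -0.14 (adjusted p = 0.0853) and Uqcrfs1, the Rieske iron-sulfur protein, -0.18 (adjusted p = 0.114). Uqcrh, the hinge protein that faces cytochrome c, pointed the other way, at 178, 180.0 and 158 CPM in icariin, 164, 194 and 178 CPM in CIAKI, and 157, 161 and 151 CPM in control libraries. All CIAKI values were above all control values, and the difference did not pass (0.19, SE 0.08, adjusted p = 0.0926).

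**Figure D2:**
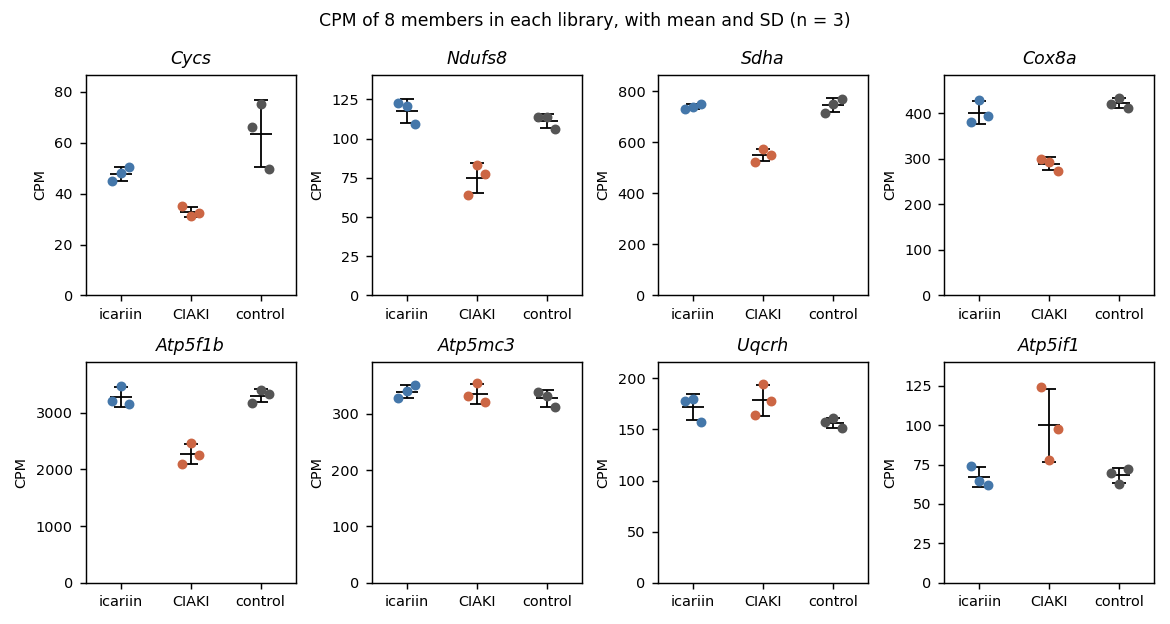
CPM (vertical axis, from 0) of 8 members in the icariin, CIAKI and control libraries, with points for libraries and crosses with bars for mean and SD (n = 3 each). Cycs, Ndufs8, Sdha, Cox8a and Atp5f1b are lowest in the 3 CIAKI libraries, Atp5mc3 overlaps between groups, and the CIAKI libraries of Uqcrh and Atp5if1 lie above those of control.

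Complex IV, cytochrome c oxidase, had the fewest members lower in CIAKI for its size. Cox8a, a small membrane subunit, stood at 380.4, 429 and 394 CPM in icariin, 300.3, 293 and 273 CPM in CIAKI, and 421, 433 and 412 CPM in control libraries. Its CIAKI libraries were clearly the lowest, and its log2 fold change was -0.55 (SE 0.07, adjusted p = 0.000492). Cox6c, another membrane subunit, was lower by -0.33 (adjusted p = 0.0171), a call that ended without control replicate 3 (0.0649). Ndufa4l2, a hypoxia-induced relative of Ndufa4, stood at 1.79, 1.88 and 0.863 CPM in icariin, 0.637, 0.594 and 0.792 CPM in CIAKI, and 2.4, 1.16 and 1.97 CPM in control libraries. No CIAKI library reached 1 CPM, so this gene, like Cox4i2, met the rule through the other groups, and its log2 fold change of -0.74 is given as a description. Its call ended in 5 alternative settings (adjusted p up to 0.113). Without Ndufa4l2 and Cox4i2, 39 of 80 members and 2 of 13 members of complex IV were lower. Cox5a, a subunit that faces the matrix, was higher, at 164, 156 and 159 CPM in icariin, 173, 154 and 167 CPM in CIAKI, and 145, 151 and 139 CPM in control libraries. Its groups did not overlap between CIAKI and control, but the margin was narrow (0.18, SE 0.07, adjusted p = 0.0488). The call of Cox5a ended in 13 of 20 alternative settings, including the removal of any library other than CIAKI replicate 2, with adjusted p up to 0.156.

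The remaining 11 members of complex IV did not pass and lay between -0.19 and 0.02 in CIAKI against control. They included the general isoforms Cox4i1 (-0.18, adjusted p = 0.0687), Cox6a1 (-0.19, adjusted p = 0.0989) and Cox7a2 (-0.09, adjusted p = 0.448), as well as Ndufa4 (0.02) and Cox7a2l, which joins complexes into supercomplexes (0.02). The isoforms of muscle, testis and lung were near the floor. Cox4i2, the lung isoform of Cox4, stood just inside the rule at 1.1, 1.27 and 0.597 CPM in icariin, 0.457, 0.966 and 0.482 CPM in CIAKI, and 1, 0.732 and 0.7 CPM in control libraries. Just outside it was the testis isoform Cox6b2 at 0.124 to 0.505 CPM. The second identifier of Ndufv3, a gene of complex I and not of complex IV, was also outside it, at 0.297 to 0.777 CPM. Of the muscle isoforms, Cox7a1 averaged 0.23, 0.154 and 0.326 CPM in icariin, CIAKI and control, Cox8b stayed at or below 0.754 CPM, and Cox6a2 at or below 0.0743 CPM. The testis isoform Cox7b2 had reads in icariin replicate 2 only, at 0.0283 CPM. Cox8c and the pseudogene Cox6c-ps1 had 0 reads in all libraries, which allows up to 0.0466 CPM in the shallowest library (3 reads, counting error only). The highest values of Cox7a1 and Cox8b, 0.507 and 0.754 CPM, were in control replicate 1, the library with Ucp1. The part of fat tissue in these 2 values was not tested.

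Complex V, the ATP synthase, had 4 of 5 subunits of the F1 head lower in CIAKI. Atp5f1b, the catalytic beta subunit, stood at 3213, 3474 and 3147 CPM in icariin, 2095, 2459 and 2255 CPM in CIAKI, and 3171, 3401 and 3324 CPM in control libraries. The CIAKI libraries stood well below the rest (log2 fold change -0.54, SE 0.12, adjusted p = 0.0054). Atp5f1a, the alpha subunit, averaged 1615 ± 112 CPM in CIAKI and 2189 ± 46.6 CPM in control (-0.44, SE 0.10, adjusted p = 0.00671). Atp5f1c, the gamma subunit of the rotor, had a log2 fold change of -0.43 (adjusted p = 0.00163), and Atp5f1e, the epsilon subunit, of -0.45 (adjusted p = 0.000633). Atp5f1d, the delta subunit, did not pass, at 225, 224 and 214 CPM in icariin, 204, 221 and 201 CPM in CIAKI, and 216, 207 and 208 CPM in control libraries (-0.01, SE 0.06, adjusted p = 0.888). Its libraries of CIAKI and control overlapped.

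In the stalk of complex V, Atp5pf, coupling factor 6, was lower by a log2 fold change of -0.46 (adjusted p = 0.00383). Atp5po, the OSCP subunit that joins stalk and head, stood at 309.5, 323 and 304 CPM in icariin, 248, 262 and 253 CPM in CIAKI, and 324, 327 and 323 CPM in control libraries. The spread within each group was small beside the gap to CIAKI (-0.35, SE 0.06, adjusted p = 0.00153). The stalk subunit b, Atp5pb, was lower by -0.23 (adjusted p = 0.0446). Its call ended in 9 alternative settings, among them those without CIAKI replicate 1 (0.119) or 3 (0.0792), control replicate 2 (0.149) or 3 (0.119), or any single icariin library (up to 0.0621). Atp5pd did not pass (-0.07). In the membrane part, Atp5mg was lower (-0.46, adjusted p = 0.00345), whereas Atp5me (-0.44, adjusted p = 0.101), Atp5md (-0.26, adjusted p = 0.0656) and Atp5mf (-0.01, adjusted p = 0.914) did not pass. Atp5mc1, Atp5mc2 and Atp5mc3 encode the same mature c-ring subunit with different import signals. Atp5mc2 was lower in CIAKI (104 ± 4.45 CPM, against 129 ± 8.38 CPM in control, a log2 fold change of -0.31, adjusted p = 0.0137), a call that ended without control replicate 1 (0.0559). Atp5mc1 (-0.08, adjusted p = 0.566) and Atp5mc3 (0.04, adjusted p = 0.711) did not pass, and Atp5mc3 stood at 327, 339.8 and 350.4 CPM in icariin, 331, 354 and 320.2 CPM in CIAKI, and 338, 332 and 311 CPM in control libraries. Whether subunits of a complex changed to different degrees was not tested.

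Atp5if1 was the only member besides Cox5a that was higher in CIAKI than in control. It encodes the inhibitory factor that binds the F1 head and blocks ATP hydrolysis by complex V, and it is not a structural subunit. Its values were 74, 64.8 and 61.9 CPM in icariin, 124, 78 and 97.3 CPM in CIAKI, and 69.9, 62.8 and 72 CPM in control libraries. Each CIAKI library lay above every other library, with a wide spread among the 3. The log2 fold change of CIAKI against control was 0.52 (SE 0.15, adjusted p = 0.022), and that of icariin against CIAKI was -0.55 (SE 0.15, adjusted p = 0.0186). The first call ended without CIAKI replicate 1 (0.0512), without control replicate 1 (0.05 after rounding) and without control replicate 2 (0.0734). The second ended without icariin replicate 2 (0.0558) or 3 (0.0594).

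**Figure D3:**
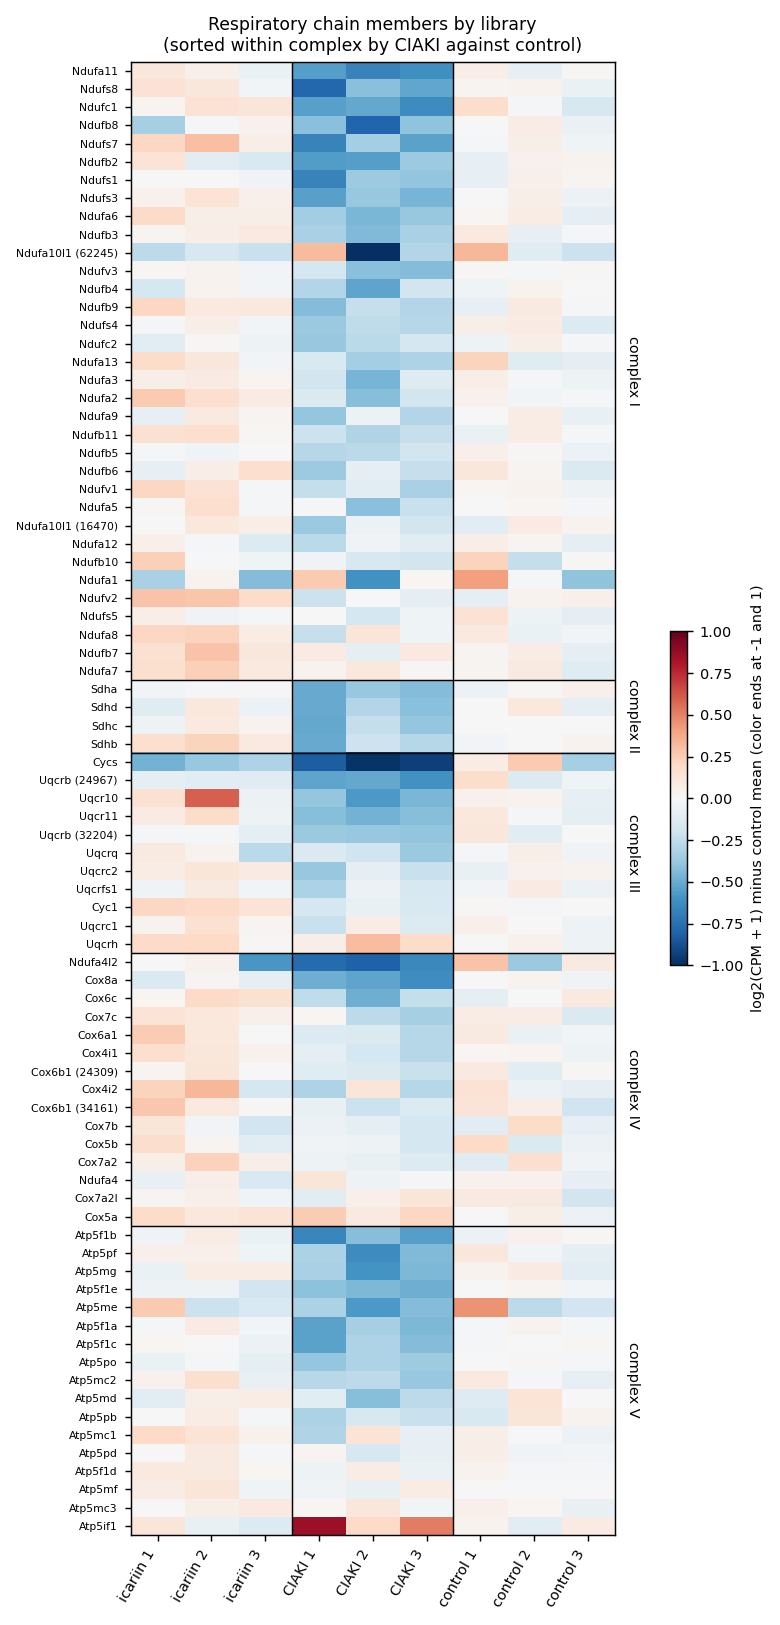
Log2(CPM + 1) of 81 of the 82 members (down, grouped by complex) in each library (across, icariin, CIAKI and control), as the difference from the control mean, with blue lower and red higher and colours ending at -1 and 1. The 3 CIAKI columns are blue for most members, with per-library medians over all 82 of -0.29, -0.26 and -0.28, and red for Atp5if1.

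Within a group, members were not all lowest in the same library. Of 82 members, 22, 6 and 54 were lowest in icariin replicates 1, 2 and 3, 33, 29 and 20 in those of CIAKI, and 22, 18 and 42 in those of control, so the counts were closest to each other in CIAKI. The median coefficient of variation of the members was 5.53% in icariin, 7.28% in CIAKI and 5.29% in control libraries. Per-library medians over the 82 members, as log2 differences from the control mean, were 0.04, 0.09 and -0.01 in icariin, -0.29, -0.26 and -0.28 in CIAKI, and 0.03, 0.03 and -0.05 in control. In some complexes the CIAKI libraries were less alike, with medians of -0.50, -0.27 and -0.40 in complex II and -0.09, -0.14 and -0.22 in complex IV. In complex V they were -0.31, -0.31 and -0.36. CIAKI replicate 1 was the lowest CIAKI library for 4 of 4 members of complex II and 6 of 7 core subunits of complex I. It was the highest for 11 of 15 members of complex IV.

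The comparison of icariin with CIAKI kidneys asks what pretreatment changed under the same protocol. Most respiratory chain genes were higher in icariin kidneys. Of 82 members, 49 were higher, 1 was lower and 32 did not pass, where 19.2% of all features tested were higher and 20.2% were lower. The median log2 fold change of the members was 0.31, beside 0.02 over all features, and 76 of 82 lay above 0. The icariin libraries lay wholly above the CIAKI libraries for 57 members and wholly below them for 1, against 24.9% and 25.9% of all features. This comparison shares its CIAKI libraries with the one above, so low values there enter both. By complex, 24 of 35 members were higher in complex I, 4 of 4 in complex II, 7 of 11 in complex III, 5 of 15 in complex IV and 9 of 17 in complex V.

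Uqcr10, a small subunit of complex III, had the highest log2 fold change of icariin against CIAKI (0.71, SE 0.15, adjusted p = 0.00503), with icariin replicate 2 far above the other icariin libraries at 109 CPM. Next were the complex I genes Ndufs7 (0.70, SE 0.10, adjusted p = 0.000712), Ndufc1 (0.66, SE 0.11, adjusted p = 0.00154), Ndufs8 (0.65, SE 0.10, adjusted p = 0.0011) and Ndufa11 (0.64, SE 0.08, adjusted p = 0.000378). These 5 genes are also the members in the authors' deposited table of selected mRNAs, which gives FPKM, a level per transcript length, for icariin and CIAKI libraries. The genes of that table were selected on these samples, so their presence is no independent evidence of direction. On that scale Uqcr10 was the highest of the 5 in every library, at 151, 204 and 132 FPKM in icariin and 98.4, 89.2 and 97.8 FPKM in CIAKI in the authors' deposited table. Ndufs8 came next at 129, 125 and 116 FPKM in icariin and 64.3, 86.1 and 80.4 FPKM in CIAKI, in the authors' deposited table. In the authors' deposited table Ndufs7 stood at 72.5, 77.1 and 67.1 FPKM in icariin and 37.7, 49.1 and 43 FPKM in CIAKI. Its range overlapped in each group with that of Ndufa11, at 73.1, 69.4 and 65.7 FPKM in icariin and 43.7, 41.6 and 43.5 FPKM in CIAKI in the authors' deposited table. Ndufc1 was the lowest of the 5, at 41.9, 45.3 and 45.6 FPKM in icariin and 26.4, 27.9 and 25.7 FPKM in CIAKI in the authors' deposited table.

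In complex II, Sdhb (0.50), Sdha (0.43), Sdhc (0.40) and Sdhd (0.38) were higher in icariin than in CIAKI, with adjusted p between 0.00175 and 0.00908. So were Ndufs3 (0.54), Ndufs1 (0.46), Cox8a (0.47), Cox6c (0.45), Atp5f1b (0.53), Atp5f1a (0.46), Atp5f1c (0.41) and Cycs (0.53, SE 0.14, adjusted p = 0.0143). Ndufv2, Ndufv1, Cyc1 and Cox4i1, which did not pass in CIAKI against control, passed here, and whether the 2 differences differ in size was not tested. Ndufv2 stood at 205, 203 and 191 CPM in icariin, 144, 167 and 157 CPM in CIAKI, and 158, 172 and 174 CPM in control libraries. Its icariin libraries were above every library of both other groups (0.35 against CIAKI, SE 0.07, adjusted p = 0.00521). Cyc1 showed the same order, at 219, 217 and 208 CPM in icariin, 167, 179.8 and 170.1 CPM in CIAKI, and 191, 188 and 189 CPM in control libraries (0.31 against CIAKI, SE 0.06, adjusted p = 0.0027). For Ndufv1 the log2 fold change against CIAKI was 0.34 (adjusted p = 0.00954), and for Cox4i1 it was 0.29 (adjusted p = 0.012). The calls of 10 of the 49 members ended when at least 1 library was left out. These were Ndufa10l1 (ENSRNOG00000016470), Ndufa13, Ndufa3, Ndufa9, Ndufb4, Ndufb8, Ndufc2, Cox6a1, Cox6b1 (ENSRNOG00000024309) and Atp5pb. All of them except Cox6a1 lost their call without icariin replicate 2 (adjusted p 0.0767 to 0.147), and Cox6a1 lost it without icariin replicate 1 (0.0611) or CIAKI replicate 3 (0.0516). Ndufa10l1 with this identifier and Ndufa9 lost it without any library other than CIAKI replicate 2. The icariin libraries 1 or 3 also ended calls of Ndufa13, Ndufa3, Ndufb4, Ndufb8, Ndufc2, Cox6b1 and Atp5pb, as did at least 1 CIAKI library for each of these, and control libraries for Ndufb4 (each of 3), Cox6b1 and Atp5pb (control replicate 3).

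The comparison of icariin with control kidneys asks whether the pretreated, injured kidney differs from the untreated. No member passed, as 0 of 82 were higher and 0 were lower, where 0.4% of all features tested were higher and 0.227% were lower (0.628% in either direction). The members' median log2 fold change was 0.05, and 3 of 82 (3.66%) had an unadjusted p below 0.05, against 10.2% of all features. edgeR and DESeq2 on recovered reads also called 0 members in each direction. Those 3 were Ndufv2 (0.25, SE 0.07, unadjusted p = 0.00802, adjusted p = 0.23), Cyc1 (0.18, SE 0.06, unadjusted p = 0.0114, adjusted p = 0.27) and Cycs. Cycs was the most negative, at -0.39 on the log2 scale (SE 0.14, unadjusted p = 0.0191, adjusted p = 0.333), and its icariin mean was 75.1% of the control mean. Its 3 icariin values overlapped with the lowest control value, 49.5 CPM. The icariin libraries lay wholly above the control libraries for 11 members, among them Ndufs7, Sdhb and Cox5a, and wholly below them for 1, Atp5f1e, against 9.12% and 10.2% of all features. The summed CPM of the members in icariin libraries was 102% of the control mean, between 100.4% for complex V and 104.6% for complex III. A test that is not passed does not show that the groups were alike: the log2 fold changes had standard errors of 0.06 to 0.30.

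**Figure D4:**
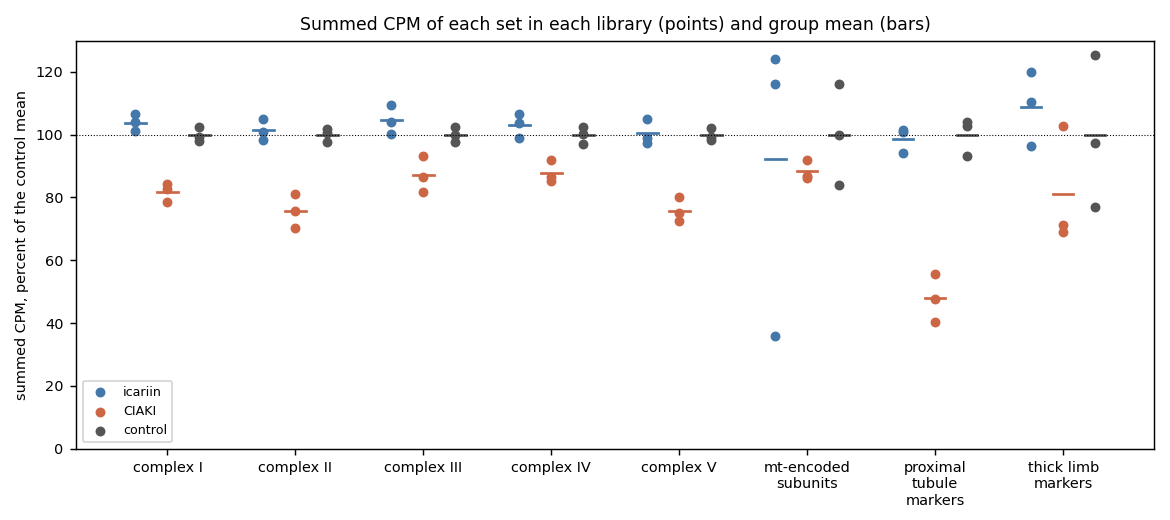
Summed CPM of each complex, of the 13 mitochondrially encoded subunits and of 2 tubule marker lists in each library, as percent of the control mean (vertical axis, from 0), with points for libraries and bars for group means in the order icariin, CIAKI, control. The CIAKI means are 75.7% to 87.9% for the complexes and 47.9% for the proximal tubule markers, and icariin replicate 2 is the low point of the mitochondrially encoded sum.

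Genes that build these complexes without being part of them did not share the members' median. Of 53 listed assembly factors 48 were tested, and in CIAKI against control 6 were higher, 7 were lower and 35 did not pass, with a median log2 fold change of -0.00. Over all features 20.8% were higher and 20.5% lower. The higher ones were Ndufaf4 (0.70, adjusted p = 0.000256), Ndufaf6 (0.53) and Ndufaf2 (0.50) of complex I, Bcs1l, which inserts the Rieske protein into complex III (0.49), and Cox19 (0.59) and Coa3 (0.29) of complex IV. The lower ones were Lyrm7, a chaperone of the Rieske protein (-0.64), Nubpl, which delivers iron-sulfur clusters to complex I (-0.56), Cox16 (-0.56), Taco1, a translational activator of Mt-co1 (-0.40), and Coa5 (-0.38). Tmem70, an assembly factor of complex V (-0.51, adjusted p = 0.000807), and Sdhaf2, which attaches the flavin to Sdha (-0.35), were lower too. Ndufaf4 averaged 40 ± 2.79 CPM in icariin, 65.7 ± 2.25 CPM in CIAKI and 40.1 ± 2.76 CPM in control kidneys. The summed CIAKI levels of the factors of complexes II and IV were 84.6% and 88.0% of the control mean. In both, every CIAKI library lay below every control library, with median log2 fold changes of -0.15 and 0.02. The factors of complex I summed to 105.8%, with every CIAKI library above every control library. Those of complexes III and V summed to 94.6% and 92.8%, with overlap. The call of Coa3 ended without CIAKI replicate 3 or control replicate 1 or 2 (adjusted p up to 0.078), and that of Ndufaf2 without any single library other than CIAKI replicate 2 or control replicate 2 (up to 0.146). In icariin against CIAKI 9 assembly factors were higher and 4 were lower, where 19.2% of all features were higher and 20.2% lower. Those higher in icariin were Lyrm7 (0.69), Tmem70 (0.62), Nubpl (0.54), Cox16 (0.52), Taco1 (0.39), Sdhaf2 (0.37), Foxred1 (0.27), Coa5 (0.25) and Acad9 (0.20). The calls of Foxred1, Coa5 and Acad9 ended in 8, 13 and 10 alternative settings (adjusted p up to 0.141, 0.133 and 0.121), most of them the removal of 1 library. Those lower in icariin were Ndufaf4 (-0.71), Cox19 (-0.77), Bcs1l (-0.44) and Coa3 (-0.37).

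Of the 13 mitochondrially encoded subunits, 2 (15.4%) were lower and 0 were higher in CIAKI than in control, with a median log2 fold change of -0.14. Over all features tested, 20.5% were lower and 20.8% were higher. With only 13 genes, the share of lower genes was not read as different from that of all features. The 2 lower subunits were Mt-co2 of complex IV (-0.85, adjusted p = 0.0298) and Mt-nd6 of complex I (-0.54, adjusted p = 0.0175). In icariin against CIAKI 1 of the 13 (7.69%) was higher, Mt-nd6 (0.50, adjusted p = 0.0252), and 0 were lower, where 19.2% of all features were higher and 20.2% lower. The call of Mt-co2 ended without CIAKI replicate 2 or 3 or control replicate 1 or 3 (adjusted p up to 0.095). That of Mt-nd6 against control ended without CIAKI replicate 2 or 3 or control replicate 3 (up to 0.0581), and that in icariin against CIAKI without replicate 2 or 3 of either group (up to 0.0856). The summed level of the 13 was 16516 to 57089.9 CPM in icariin, 39621 to 42329 CPM in CIAKI and 38583 to 53385 CPM in control libraries, so the groups overlapped. When CPM was rescaled without these genes, 43 members were lower in CIAKI than in control and 52 were higher in icariin than in CIAKI.

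Markers of kidney segments differed between the groups, and not all in the direction of the members. Over all features 20.5% were lower and 20.8% higher in CIAKI than in control, and 19.2% were higher in icariin than in CIAKI. Of 12 proximal tubule markers 8 were lower and 0 higher in CIAKI than in control, and 10 were higher in icariin than in CIAKI. In CIAKI against control 2 of the 12 lay above 0, up to 0.35. Slc27a2 was higher there only with DESeq2 (adjusted p = 0.0336) and without CIAKI replicate 1 (0.00257). In icariin against control Slc27a2 was higher (0.83), a call that ended in 10 alternative settings (adjusted p up to 0.144). The summed level of the 12 was 25431 to 27415 CPM in icariin, 10937 to 15057 CPM in CIAKI and 25185 to 28182 CPM in control libraries. The CIAKI libraries lay below all others, at 47.9% of the control mean, beside 79.8% for the respiratory chain members. The call of Slc13a3 in CIAKI against control ended without control replicate 3 and with quantile normalization (adjusted p up to 0.0624). In icariin against CIAKI that of Slc27a2 ended without icariin replicate 1 (0.0528), and that of Aqp1 in 8 settings, among them without replicate 1 or 2 of either group (up to 0.102). Of 7 thick ascending limb markers 3 were lower in CIAKI than in control (Egf, Umod and Cldn10) and 0 were higher. Another 3 of the 7 lay above 0, the highest being Slc12a1 (0.56), which passed only with the replicate block (adjusted p = 0.0438). The sums of the 7 overlapped, at 5648 to 7018 CPM in icariin, 4043 to 6016 CPM in CIAKI and 4513 to 7342 CPM in control libraries. The call of Umod ended without control replicate 2 (adjusted p = 0.0534), and that of Cldn10 without CIAKI replicate 1 or 3 or any single control library (up to 0.117). Of 4 distal convoluted tubule markers Slc12a3 and Calb1 were lower in CIAKI, and Pvalb was at 0 in all libraries. Their sums were 741 to 895 CPM in icariin, 758 to 830.0 CPM in CIAKI and 1258 to 1377 CPM in control libraries, so both injured groups lay below control, and 0 of 3 tested were higher in icariin than in CIAKI. Intercalated cell markers summed to 329 to 452 CPM in icariin, 279 to 405 CPM in CIAKI and 379 to 399 CPM in control libraries, with 1 of 5 lower in CIAKI (Foxi1), near the share of all features. Of 5 principal cell markers 2 were higher (Aqp2 and Aqp3) and 3 lower (Avpr2, Scnn1b and Scnn1g) in CIAKI, and their sums were 693 to 916 CPM in icariin, 474 to 742 CPM in CIAKI and 405 to 477 CPM in control libraries. The call of Aqp3 ended without replicate 2 or 3 of CIAKI or replicate 1 or 2 of control (adjusted p up to 0.0947), and that of Scnn1g without replicate 1 or 2 of CIAKI or replicate 1 or 3 of control (up to 0.0639). Macrophage markers summed to 70.2 to 100.2 CPM in icariin, 43.2 to 65.1 CPM in CIAKI and 85.3 to 94.6 CPM in control libraries, with 2 of 5 tested lower in CIAKI (Adgre1 and Csf1r). Another 2 of the 5 lay above 0 in CIAKI against control, up to 0.36, and did not pass. Of these, C1qb passed as higher only without CIAKI replicate 3 (0.68, adjusted p = 0.0444). Erythroid markers summed to 69.1 to 427 CPM in icariin, 682 to 846 CPM in CIAKI and 70.3 to 414 CPM in control libraries, so they were highest in CIAKI. Of the 2 tested, Hbb was higher in CIAKI (2.46, adjusted p = 0.0325) and Alas2 did not pass, and the call of Hbb ended with edgeR, with no filter on low values, with the replicate number as a block and without any single CIAKI library or control replicate 2 or 3 (adjusted p up to 0.107). Adipocyte markers summed to 14 to 19.6 CPM in icariin, 9.24 to 18.5 CPM in CIAKI and 11.1 to 52.4 CPM in control libraries, and neutrophil markers to 3.82 CPM or less in every library. Skeletal muscle markers summed to 0.947 CPM or less and adrenal cortex markers to 1.2 CPM or less in every library. In whole kidney RNA, fewer cells of a type and less RNA per cell cannot be told apart. The part of these markers in the members' values was not tested.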

How the data were processed

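Kidney RNA of 9 rats was sequenced from Illumina TruSeq libraries, 1 library per sample, with 3 rats in each of 3 groups per the series' design text. Bowtie 0.12.2 and the build mm8 are listed, per the submitters' processing notes. The listed build belongs to the mouse and the identifiers to rat Ensembl genes, and the reference aligned to is not settled here. The counter, the annotation and the strand setting were not given in the sources used here, so copies and overlapping genes may share reads.

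The main table was deposited by the authors in CPM, the unit its values show: each library sums to the same total. Dividing by the smallest CPM step gave whole reads for 100% of values, at a tolerance of 0.1 read. The authors' deposited table of selected mRNAs also holds read counts, and 23850 of 23850 were equal to the recovered reads. The FPKM values printed are those of the authors' deposited table of selected mRNAs, per the file headers. The deposited files in other units were not used here.

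The filter of 1 CPM or more in 3 or more libraries kept 16731 of 36267 features, which were tested in limma 3.58.1 (R 4.3.3) with an intensity trend, on log2(CPM + 1), with group as the factor and all 9 libraries in the fit. Tests were two-sided with Benjamini-Hochberg adjustment over all features, and calls were made at an adjusted p below 0.05. On the recovered reads, edgeR 4.0.16 called 7028, 6745 and 76 features in CIAKI against control, icariin against CIAKI and icariin against control, beside 6903, 6592 and 105 with limma. The 20 alternatives were 2 other pseudocounts, 2 other filters, 3 other scalings, edgeR, DESeq2 1.42.0, a fit of only the groups compared, a replicate block, and the removal of each of the 9 libraries. Only the limma fit was also run on simulated data, read for CIAKI against control. For genes of the other lists, these alternatives were added after seeing the data.

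The members and lists were chosen with earlier results of these data known. Members named were up to 4 per complex and direction with the smallest p among those called in CIAKI against control and in icariin against CIAKI, any called in icariin against control, the catalytic core subunits and the isoform sets. Of other lists, up to 3 per direction and those of 5 or fewer against their list were named. The values of 1 member are not reported here, though it is in every count. Genes outside these rules were named after their values were seen. Promoter windows were matched by symbol to RefSeq, build GRCr8, which supplied 68 of 79 symbols, and they say nothing of the build the authors aligned to. Reads are PCR products without molecular identifiers, so the limit given for 0 reads covers counting error only.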

Additional observations from a re-analysis of the deposited data

How the results depend on the processing

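No call of a member or listed gene changed direction under the 20 alternatives. Genes that passed in neither fit were not compared for direction. Of the median log2 fold changes across sets, comparisons and alternatives, 349 stayed within the spread of the library medians. The other 11 moved beyond it without a change of sign. Members lower in CIAKI than in control numbered 34 to 52, and members higher in icariin than in CIAKI 40 to 57, the largest counts being those with quantile normalization. In icariin against control 0 members passed under all 20. Of the 40 members lower in CIAKI, 31 kept their call under every alternative, as did 39 of the 49 higher in icariin than in CIAKI. The count of members higher in CIAKI than in control was 1 in place of 2 with no filter on low values, with quantile normalization, with rescaling without mitochondrially encoded genes, with only the groups compared in the fit and with the replicate block. It was 0 to 2 when single libraries were left out, and 0 members were higher without control replicate 1 or 2. The single member lower in icariin than in CIAKI, Atp5if1, gave a count of 0 to 1 when single libraries were left out, and 0 without icariin replicate 2 or 3. Over all features, icariin against control gave 105 calls, against 52 with no filter on low values, 524 with DESeq2 and 31 to 127 without single libraries. With the replicate block, 45 members were lower in CIAKI than in control and 49 were higher in icariin than in CIAKI. The deviations of libraries with the same number were weakly correlated. The correlations ran from -0.03 to 0.05 between CIAKI and control, from 0.02 to 0.08 between icariin and CIAKI and from -0.02 to -0.01 between icariin and control. Replicates 2 and 3 of CIAKI correlated best with their own number in control (0.05 each), as did those of icariin with CIAKI (0.07 and 0.08). Replicate 1 of CIAKI against control and of icariin against CIAKI did not, nor did any icariin library against control. Whether libraries with the same number shared a batch was not tested, and the numbers are taken as names. With quantile normalization the members' median log2 fold change was -0.31 in CIAKI against control and 0.35 in icariin against CIAKI. Why counts moved was not tested. With 3 rats a group, differences near the SE of single members could not be told from 0.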
